A study of Mus musculus with 10 samples.

Results

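The 7 genes described here code for the pore-forming subunits of voltage-gated sodium channels (Scn1a, Scn2a, Scn3a, Scn8a) and of HCN channels (Hcn2, Hcn3, Hcn4), and were followed across the nucleus classes of the adult mouse hippocampus. They were the 7 rows, of 24837 genes in the deposited matrix, whose symbol matched one of these names, and each name matched 1 row. The mice were wild-type, of strain C57B/6J, 4 to 7 months old and given no stimulation. Nuclei from frozen hippocampus were stained with the DNA dye 7AAD, sorted and made into droplet libraries that count RNA molecules by unique molecular identifiers (UMIs). All 10 samples belong to this 1 group, although the titles of 4 call them RNASET2 controls, and the series title concerns the histone methyltransferase SETD1B. The nuclei lie in 1 matrix with 7 barcode suffixes, called barcode sets here. No label ties a barcode set to a sample, so the matrix was treated as 1 sample, no p-value was computed, and every comparison is between classes of nuclei within it.

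Voltage-gated sodium channels open on depolarization and carry the rising phase of the action potential. Scn8a and Scn2a proteins are known from the axon initial segment and nodes of Ranvier, Scn1a is known for its part in the firing of inhibitory interneurons, and Scn3a is best known from the developing brain. HCN channels open on hyperpolarization, bind cyclic nucleotides, and carry the mixed cation current that paces rhythmic firing and sets the resting membrane in dendrites. Hcn4 is the main pacemaker isoform of the heart.

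Positions are from GENCODE M21 on the mouse build GRCm38. Scn3a (chr2:65457118-65567627, minus strand), Scn2a (chr2:65620771-65767447, plus strand) and Scn1a (chr2:66270778-66440840, minus strand) share chromosome 2, with Scn3a and Scn2a neighbours in opposite orientation. Scn8a lies at chr15:100869858-101045938 (plus strand), Hcn2 at chr10:79716634-79736108 (plus strand), Hcn3 at chr3:89146074-89160196 (minus strand) and Hcn4 at chr9:58823412-58863175 (plus strand). The last 711 bases of Hcn3 overlap Pklr on the opposite strand, and Pklr had 16 UMIs in the nuclei used, against 672 for Hcn3. Gm13630 overlaps Scn1a and Gm13595 overlaps Scn3a on the opposite strand, and whether the counting used strand is not given in the sources used here, so reads from these pairs cannot be told apart.

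RefSeq start sites in the table used (GRCm38.p6) were found for 5 of the 7 members. The 250 bases before the start are shown for Hcn2, which was highest in oligodendrocytes, and for Scn2a and Scn8a, which were highest in neurons, written 5′ to 3′ on the gene's strand with GGGCGG or its reverse complement in capitals.
Hcn2 (chr10:79716384-79716633, plus strand): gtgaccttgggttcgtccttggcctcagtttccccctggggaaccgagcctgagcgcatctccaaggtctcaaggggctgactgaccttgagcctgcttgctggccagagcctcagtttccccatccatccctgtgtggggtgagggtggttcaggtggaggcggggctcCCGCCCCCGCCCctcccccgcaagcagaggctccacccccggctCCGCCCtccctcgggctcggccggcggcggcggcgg
Scn2a (chr2:65620519-65620768, plus strand): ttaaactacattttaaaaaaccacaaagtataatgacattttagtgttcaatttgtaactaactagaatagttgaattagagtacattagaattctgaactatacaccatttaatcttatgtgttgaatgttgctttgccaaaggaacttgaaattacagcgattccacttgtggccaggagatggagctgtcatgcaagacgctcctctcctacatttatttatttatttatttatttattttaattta
Scn8a (chr15:100870395-100870644, plus strand): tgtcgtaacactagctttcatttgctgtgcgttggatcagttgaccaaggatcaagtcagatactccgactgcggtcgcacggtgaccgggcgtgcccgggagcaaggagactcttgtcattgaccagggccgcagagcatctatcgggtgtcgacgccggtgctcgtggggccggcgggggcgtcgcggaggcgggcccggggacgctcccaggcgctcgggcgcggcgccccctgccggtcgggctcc
The Hcn2 window held 3 such GC boxes at a GC content of 70.4%, and the Scn2a and Scn8a windows held 0 each at 29.6% and 68.0% GC. Of all 32851 promoter windows of this length, 32.7% held a GC box. TATAAA on either strand was in 0 of these 3 windows and in 12.4% of all windows, and the E box CANNTG, which reads the same way in letters on both strands, was in each of the 3 and in 66.2% of all windows. Scn2a and Scn8a each have a second RefSeq start site in the table. These second windows are at 53.2% GC each with 0 GC boxes, hold 0 E boxes, and in Scn2a hold 1 TATAAA match, so the letters depend on the start site. A match is a run of letters and was not tied to binding by any measurement here.

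The nuclei used numbered 15237 of 15661 barcodes, between 660 and 2954 per barcode set, and the median depth ran from 1084 UMIs per nucleus in set 7 to 8058 in set 2. Classes were named from marker genes with the members and their channel partners kept out of the clustering, so each name stands for nuclei like that type. They gave 10128 neurons and 3520 non-neuronal nuclei, beside 109 Cajal-Retzius cells, counted with neither side, and 1480 unnamed nuclei. The barcode sets stood apart in what they held. Set 6 was 99.9% neurons, set 7 held 0 of these neurons but 37 of the Cajal-Retzius cells, and 29.4% of set 1 was unnamed. Sets shared almost no barcode sequences, with 21 of 15539 found in more than 1 set. Counts below are UMIs per 1000000 UMIs of the class, called CPM, and every interval in brackets is an exact 95% interval that covers counting error only.

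Over all nuclei used, Scn2a had 41099 UMIs, Scn8a 40267, Scn1a 24598, Scn3a 14243, Hcn2 4865, Hcn3 672 and Hcn4 82. Per kilobase of annotated exon, the level was 33.0 CPM for Scn2a, 26.1 for Scn8a, 22.5 for Scn1a and 11.7 for Scn3a. On the same per-kilobase scale Hcn2 stood at 15.6 CPM, above Scn3a, while Hcn3 stood at 1.65 and Hcn4 at 0.137. The libraries read the ends of transcripts and whether intronic reads were counted is not given in the sources used here, so this scaling is rough. All levels from here on are not scaled by length and are compared between classes within 1 gene.

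**Figure D1:**
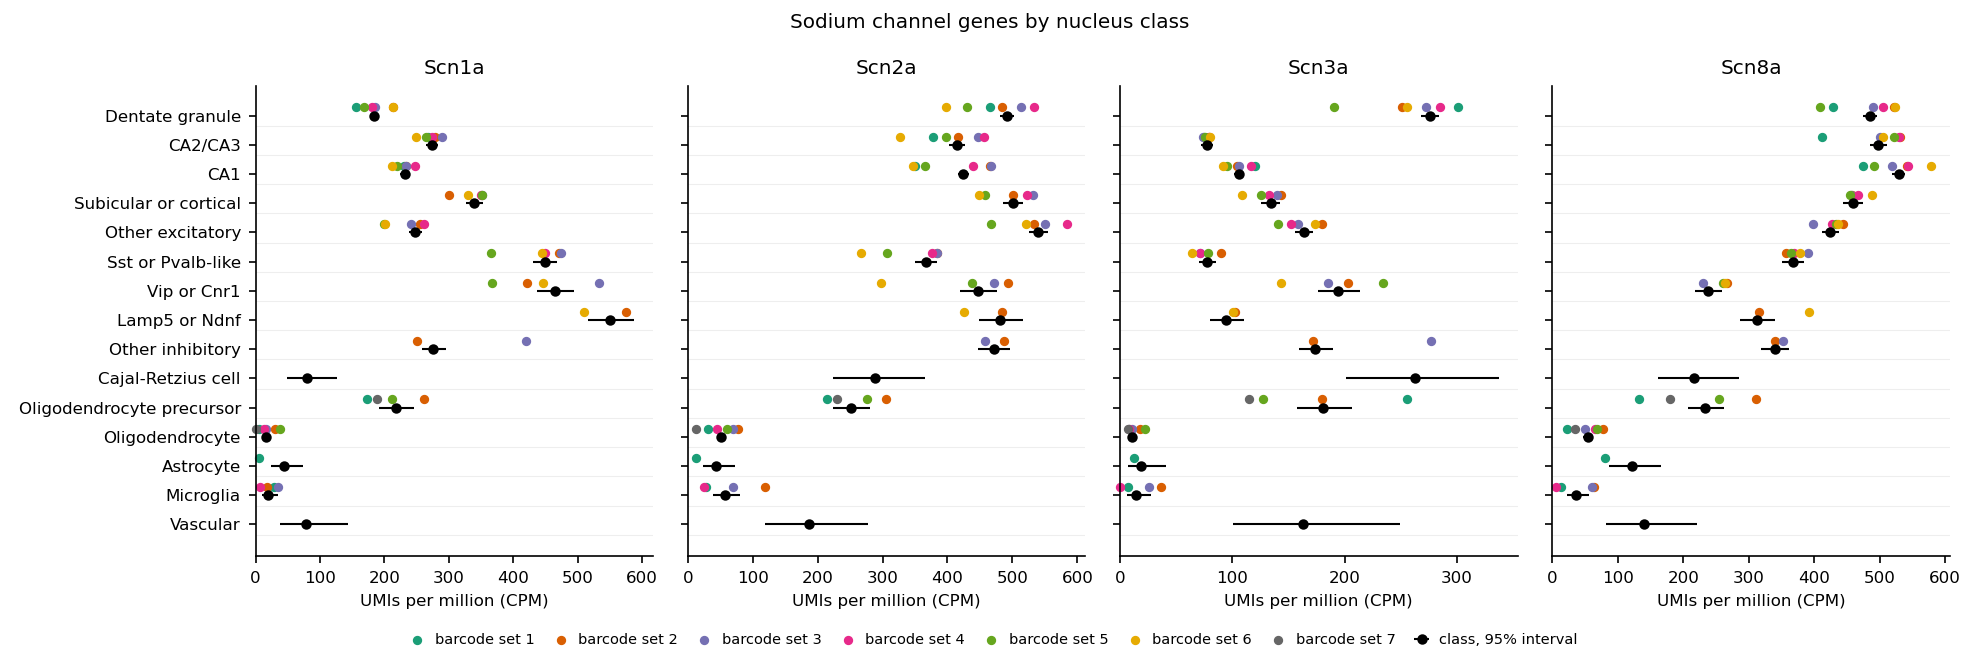
Levels of Scn1a, Scn2a, Scn3a and Scn8a (CPM, horizontal axis) in the 15 nucleus classes (rows), with the class value and its 95% counting interval in black and single barcode sets as coloured points. Scn1a is highest in Lamp5 or Ndnf interneurons at 551 CPM, Scn3a in dentate granule neurons at 276 CPM and Scn8a in CA1 neurons at 529 CPM.

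Scn1a, the sodium channel gene known for its part in interneuron firing, was highest in the 3 interneuron classes named by subtype markers. It stood at 551 CPM in Lamp5 or Ndnf interneurons (516 to 588), 465 in Vip or Cnr1 interneurons (437 to 495) and 449 in Sst or Pvalb-like interneurons (431 to 467). The intervals of the Vip or Cnr1 and the Sst or Pvalb-like class overlapped. Subicular or cortical excitatory neurons followed at 339.5 CPM, then a further inhibitory class marked by Zic1 at 276, CA2/CA3 neurons at 274, excitatory nuclei of no finer class (other excitatory) at 248 and CA1 neurons at 231. Oligodendrocyte precursors, at 218 CPM (192 to 246), overlapped with CA1 neurons and lay above dentate granule neurons at 185. The remaining classes were low, at 80.6 CPM in Cajal-Retzius cells, 77.7 in vascular cells, 43.7 in astrocytes, 19.1 in microglia and 15.8 in oligodendrocytes. The 130 astrocytes rest on single sets, with Scn1a at 82.4 CPM without set 1 and 19.5 without set 3, and Scn2a at 76.0 without set 1 and 28.0 without set 4. The 88 vascular nuclei, with a median of 1088.5 UMIs, also had 318 CPM of Camk2a and 551 CPM summed over the 8 excitatory neuron markers, and the part of neuronal RNA in their values was not tested.

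Scn2a, an axonal sodium channel gene of principal neurons, had the smallest spread of the 4 over the excitatory and inhibitory classes. It was highest in other excitatory neurons at 540 CPM (525 to 555), and the remaining excitatory classes lay at 501 (subicular or cortical), 491 (dentate granule), 425 (CA1) and 415 (CA2/CA3). The inhibitory classes lay among them, at 481 in Lamp5 or Ndnf, 471 in Zic1-marked and 447 in Vip or Cnr1 nuclei, with Sst or Pvalb-like nuclei lowest at 366. Outside the main neuron classes Scn2a stood at 288.5 CPM in Cajal-Retzius cells, 251 in oligodendrocyte precursors and 186 in vascular cells, and at 57.4 in microglia, 50.8 in oligodendrocytes and 43.7 in astrocytes.

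Scn3a, best known from the developing brain, was highest in dentate granule neurons. It stood at 276 CPM there (268 to 284) and at 263 in Cajal-Retzius cells (202 to 337), whose interval overlaps. Middle values were 194 CPM in Vip or Cnr1 interneurons, 181 in oligodendrocyte precursors, 174 in Zic1-marked inhibitory nuclei, 164 in other excitatory neurons, 163 in vascular cells (101 to 249) and 134 in subicular or cortical neurons. The lowest neurons were CA1 at 106 CPM, Lamp5 or Ndnf at 94.0, Sst or Pvalb-like at 77.3 and CA2/CA3 at 77.2, and the last pair overlapped. Astrocytes at 18.7 CPM, microglia at 13.9 (8.59 without set 2) and oligodendrocytes at 10.996 were near the bottom of the scale.

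Scn8a, whose protein is the main sodium channel of mature nodes of Ranvier, was highest in hippocampal pyramidal and granule neurons. It stood at 529 CPM in CA1 (519 to 539), 498 in CA2/CA3, 485 in dentate granule, 459 in subicular or cortical and 424 in other excitatory neurons. Every inhibitory class lay below every excitatory one, at 368 CPM in Sst or Pvalb-like, 339.9 in Zic1-marked, 312.5 in Lamp5 or Ndnf and 238 in Vip or Cnr1 nuclei. Oligodendrocyte precursors at 234 CPM overlapped with the Vip or Cnr1 class, and Cajal-Retzius cells had 216. Vascular cells had 140 CPM, astrocytes 122, oligodendrocytes 53.9 and microglia 36.5.

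The first comparison set neurons against non-neuronal nuclei. The 4 sodium channel genes were higher in neurons and Hcn2 was lower. Scn1a stood at 270.1 CPM in neurons against 53.0 in non-neuronal nuclei, a ratio of 5.09 (4.60 to 5.66), and Scn2a at 458 against 87.8, a ratio of 5.22 (4.82 to 5.66). Scn8a gave 465 CPM in neurons against 87.9, a ratio of 5.28 (4.88 to 5.73), and Scn3a 150.3 against 43.4, a ratio of 3.46 (3.09 to 3.89). In each of the 5 barcode sets with at least 50 nuclei on both sides, all 4 were higher in neurons. Across those sets the ratio ranged from 2.68 to 8.43 for Scn1a, 2.66 to 7.74 for Scn2a, 1.74 to 4.41 for Scn3a and 2.97 to 9.45 for Scn8a. Hcn2 had 42.2 CPM in neurons against 97.6 in non-neuronal nuclei, 2.31-fold lower (ratio 0.432, 0.398 to 0.470), and was lower in 5 of 5 sets. Hcn3 had 6.23 CPM in neurons against 3.55, a ratio of 1.76 (1.18 to 2.74), and Hcn4 had 47 UMIs in neurons and 2 in non-neuronal nuclei.

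Of the 6 members with 100 or more UMIs on both sides together, 4 passed 2-fold higher in neurons and 1 passed 2-fold lower, where 18.2% and 21.6% of all such genes were. The median log2 ratio of the members was 2.07, against -0.23 for all genes tested. A neuron held on average 3.85 times the UMIs of a non-neuronal nucleus, so the direction for Hcn2 depends on scaling by total UMIs. Counted as mean UMIs per nucleus without scaling, Hcn2 was higher in neurons, at a ratio of 1.66, while the sodium channel genes stayed higher. With each nucleus thinned to 1000 UMIs, the share of nuclei with a UMI of Scn8a was 36.4% for neurons and 5.49% for non-neuronal nuclei, and that of Scn2a was 34.2% for neurons and 5.96% for non-neuronal nuclei. Microglia, used here for the level that free RNA in droplets can give, stood at 2.57% for Scn8a and 1.84% for Scn1a when thinned, from nuclei with a median of 1318 UMIs before thinning. The thinning left out 34 neurons and 769 non-neuronal nuclei that were shallower. With coarser clusters (resolution 0.5), where no precursor class was named, the ratio was 14.6 for Scn1a, 9.14 for Scn2a, 13.1 for Scn3a, 11.85 for Scn8a and 3.255 for Hcn3.

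**Figure D2:**
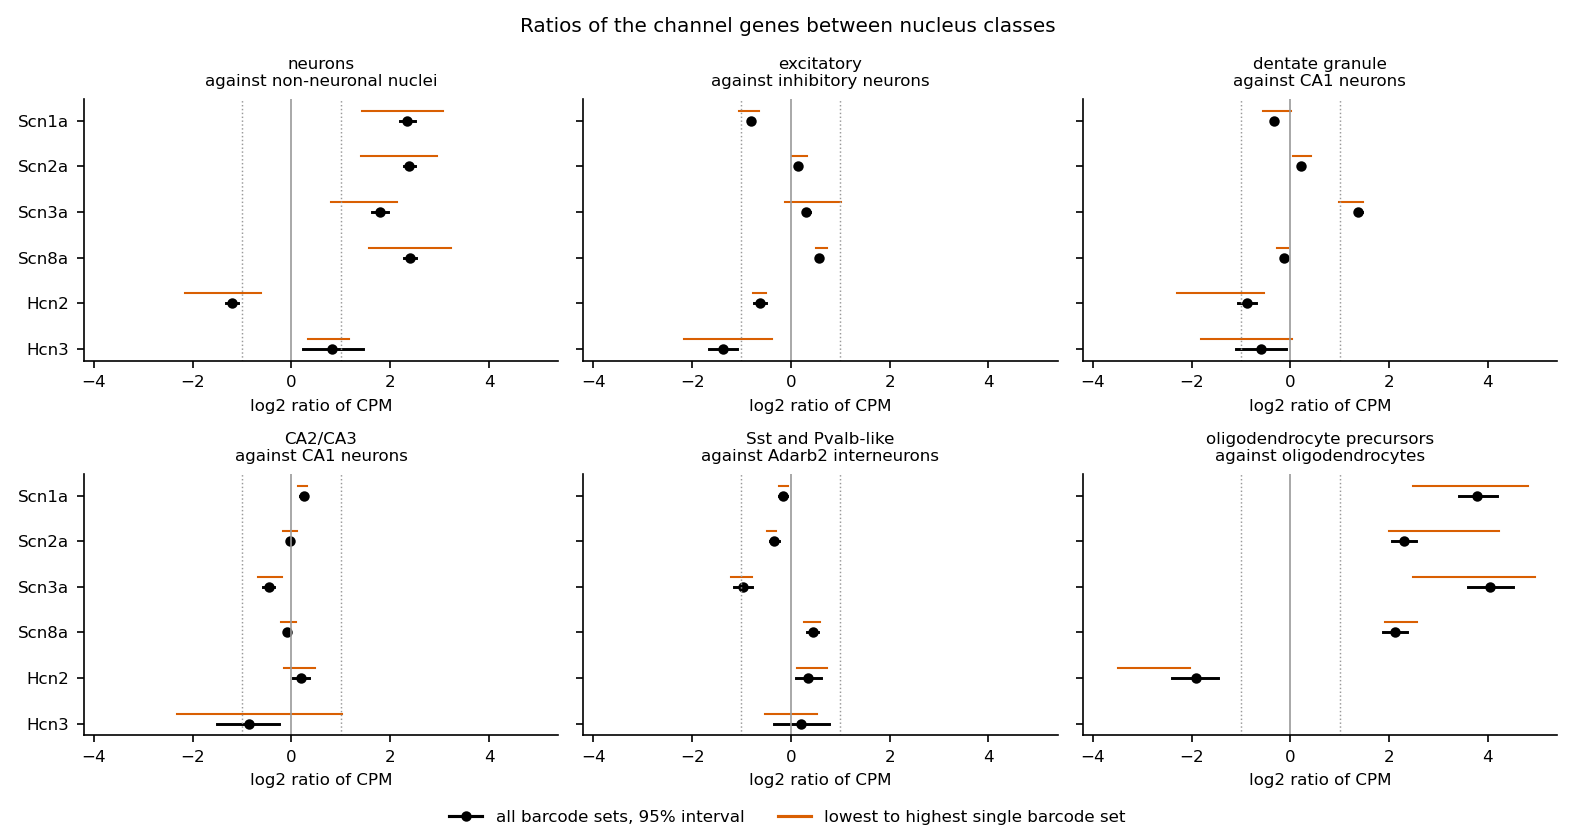
Ratio of CPM (log2, horizontal axis) for each member except Hcn4 (rows) in the 6 comparisons of nucleus classes, the first-named class over the second, with exact 95% intervals in black and the range over single barcode sets in orange. Dotted lines mark a 2-fold difference, which Scn3a passes in dentate granule over CA1 neurons at 2.60.

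The second comparison set excitatory against inhibitory neurons. An unnamed cluster of 840 nuclei with raised inhibitory markers, described at the end, was on neither side. Scn1a was lower and Scn8a higher in excitatory neurons. Over the 6 barcode sets, Scn1a ranged from 214.5 to 252 CPM in excitatory neurons (median 245) and from 378 to 484 CPM in inhibitory neurons (median 431). The ranges did not overlap. The pooled level was 242 CPM in excitatory against 423 in inhibitory neurons, a ratio of 0.572 (0.555 to 0.591). Scn8a ranged from 432 to 534.5 CPM over the sets in excitatory neurons (median 492) and from 259.6 to 353 in inhibitory neurons (median 334). These ranges did not overlap either, and the pooled levels of 489 and 329.9 CPM gave a ratio of 1.48 (1.44 to 1.53).

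Scn2a and Scn3a differed less. Scn2a had 465 CPM in excitatory against 422 in inhibitory neurons, a ratio of 1.10, and Scn3a had 155 against 125, a ratio of 1.24 that was above 1 in 5 of 6 sets. Hcn2 was lower in excitatory neurons, at 39.0 CPM against 59.8 in inhibitory neurons (ratio 0.651, 0.5996 to 0.709), in 6 of 6 sets. Hcn3 had 5.002 CPM in excitatory against 12.9 in inhibitory neurons, 2.58-fold lower (ratio 0.387, 0.319 to 0.471), also in 6 of 6 sets. Hcn3 is among the least studied HCN genes of the brain, and its level here was low in every class. Hcn4 had 24 UMIs in excitatory and 23 in inhibitory neurons. Of 6 members with at least 100 UMIs, 0 were at least 2-fold higher, where 7.34% of all genes were, and 1 was at least 2-fold lower, where 7.82% were. The members' counts are thus not far from the background.

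Because the 4 sodium channel genes differ in direction, their makeup differed between the sides while their sum hardly did. Together they had 1352 CPM in excitatory and 1299.9 CPM in inhibitory neurons. Scn1a made up 17.9% of their UMIs in excitatory and 32.5% in inhibitory neurons, and Scn8a 36.2% in excitatory and 25.4% in inhibitory neurons. Over barcode sets, the Scn1a share ran from 17.0 to 19.7% in excitatory and from 29.4 to 38.0% in inhibitory neurons. Scn2a shares were close, at 34.4% in excitatory and 32.5% in inhibitory neurons.

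Dentate granule neurons were set against CA1 neurons. Scn3a was higher in dentate granule neurons, which relay cortical input to CA3. Over the 6 barcode sets Scn3a ranged from 190.2 to 301 CPM in dentate granule neurons (median 264) and from 91.7 to 121 in CA1 neurons (median 105). The ranges did not overlap, and the pooled 276 CPM in dentate granule against 106 in CA1 neurons gave a ratio of 2.60 (2.47 to 2.74), from 1.99 to 2.79 over sets. Different clusters hold each class in different sets. Clusters 1, 6 and 13 of dentate granule neurons stood at 268, 301 and 254 CPM, and the 4 CA1 clusters 0, 3, 16 and 25 at 93.5, 108, 109 and 117, so the order held for every cluster. Markers of other cells also differed between the sides. The 9 astrocyte markers, each with UMIs on both sides, summed to 1148.5 CPM in dentate granule neurons (816.9 to 1281 over sets) and 112 in CA1 neurons (67.3 to 154), and the 9 oligodendrocyte markers to 393 CPM in dentate granule and 135 in CA1 neurons. Slc4a4, among these 9 astrocyte markers, was also a leading gene of dentate granule clusters 1 and 6, and its part in the sum was not tested. Astrocytes and oligodendrocytes themselves had Scn3a at 18.7 and 10.996 CPM, and the part of their RNA in the values of the neuron classes was not tested. A UMI of Scn3a was seen in 73.4% of dentate granule and 42.0% of CA1 nuclei as sequenced, and in 23.0% and 9.53% of them, in the same order, when thinned to 1000 UMIs.

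Hcn2 was lower in dentate granule neurons, at 22.6 CPM against 41.5 in CA1 neurons (ratio 0.544, 0.480 to 0.615), in 6 of 6 sets. Scn1a was also lower, at 185 CPM in dentate granule against 231 in CA1 neurons (ratio 0.798), in 5 of 6 sets, and Scn8a at 485 against 529 (ratio 0.917), in 6 of 6 sets. Scn2a was higher at 491 CPM in dentate granule against 425 in CA1 neurons (ratio 1.16). Hcn3 had 3.17 CPM in dentate granule against 4.77 in CA1 neurons. Of 6 members, 1 was at least 2-fold higher, where 6.53% of all genes were, and 0 were at least 2-fold lower, where 8.26% were. Of the UMIs of the 4 sodium channel genes, Scn3a held 19.2% in dentate granule and 8.22% in CA1 neurons, with set values of 15.9 to 22.3% in dentate granule and 7.46 to 10.3% in CA1 neurons.

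CA2/CA3 neurons were likewise set against CA1 neurons. The members were close in both pyramidal classes. Scn3a was lower in CA2/CA3, at 77.2 CPM against 106 in CA1 neurons (ratio 0.727, 0.672 to 0.786), in 6 of 6 sets, and Scn1a was higher, at 274 CPM against 231 (ratio 1.19), in 6 of 6 sets. Scn2a (ratio 0.976), Scn8a (0.942) and Hcn2 (1.14) differed little, and Hcn3 had a ratio of 0.551. None of the 6 members passed 2-fold, with 0 higher and 0 lower, where 3.98% of all genes were higher and 5.61% lower. A CA2/CA3 nucleus held on average 1.63 times the UMIs of a CA1 nucleus. As mean UMIs per nucleus without scaling, Scn3a turned to a ratio of 1.18 and Scn8a to 1.53. The Scn2a ratio also crossed 1, at up to 1.589 over the alternative ways of processing.

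Sst or Pvalb-like interneurons were set against Adarb2 interneurons, which are the Vip or Cnr1 and the Lamp5 or Ndnf classes together. Scn3a was lower in the Sst or Pvalb-like class, at 77.3 CPM against 151 in Adarb2 interneurons (ratio 0.512, 0.450 to 0.582), and Scn8a was higher, at 368 CPM against 269.95 (ratio 1.36, 1.26 to 1.47), each in 5 of 5 sets. Over sets, Scn3a ranged from 63.8 to 90.3 CPM in the Sst or Pvalb-like class and from 126 to 181 CPM in Adarb2 interneurons, without overlap. The pooled Adarb2 classes differed from each other, with Scn3a at 194 CPM in Vip or Cnr1 and 94.05 in Lamp5 or Ndnf interneurons. The Lamp5 or Ndnf interval (79.8 to 110) overlapped with that of the Sst or Pvalb-like class (70.0 to 85.2). Scn2a had 366 CPM in Sst or Pvalb-like against 462 in Adarb2 interneurons (ratio 0.794). Scn1a had 449 against 502 CPM (ratio 0.894), and this small difference turned to a ratio of 1.02 when nuclei were thinned and to 1.03 as mean UMIs per nucleus. Hcn2 had 66.5 CPM in Sst or Pvalb-like against 52.2 in Adarb2 interneurons (ratio 1.27). Of 6 members, 0 were at least 2-fold higher, where 4.21% of all genes were, and 0 at least 2-fold lower, where 3.26% were.

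**Figure D3:**
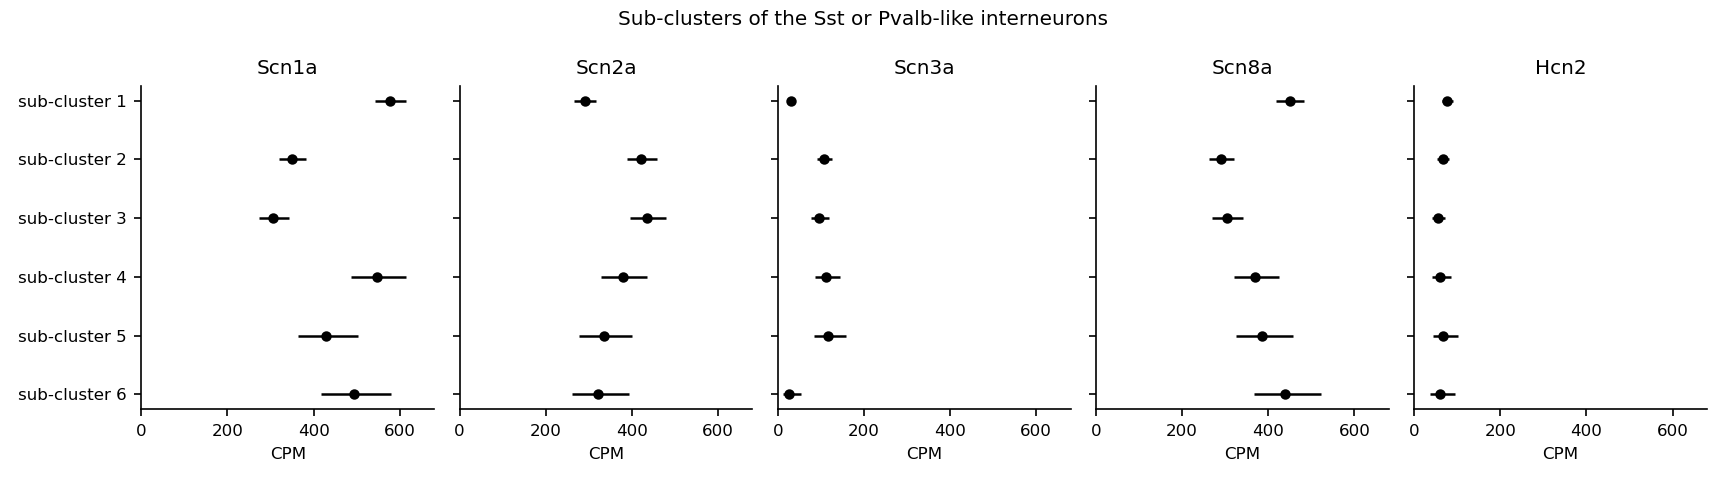
Levels of the 4 sodium channel genes and Hcn2 (CPM, horizontal axis) in sub-clusters 1 to 6 (rows) of the 718 Sst or Pvalb-like interneurons, with 95% counting intervals. Scn3a is at 31.1 and 26.9 CPM in sub-clusters 1 and 6, and between 96.5 and 117 in the other 4.

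Within the Sst or Pvalb-like class the sodium channel genes varied between sub-clusters. These also differed in markers, among them Pvalb, a calcium-buffering protein of fast-spiking interneurons. The class was split again without the members into 6 sub-clusters, which are given by number and as a description. Sub-cluster 1 (217 nuclei) had Pvalb at 49.8 CPM and Sst, a neuropeptide, at 13.5, and sub-cluster 6 (39 nuclei) had Pvalb at 40.3 and Sst at 3.36. Sub-clusters 2 and 3 (182 and 154 nuclei) had Pvalb at 5.03 and 4.11 CPM and Sst at 203 and 252. Other markers of Pvalb-like interneurons did not all follow Pvalb. Btbd11 was at 1058 and 255 CPM in sub-clusters 1 and 6, against 99.8 and 123 in 2 and 3. Tac1 was at 31.1 and 6.71 CPM, against 15.1 and 1.03 in the same order. Eya4 ran the other way, at 48.7 and 3.36 CPM in sub-clusters 1 and 6, against 108 and 50.3 in 2 and 3. In sub-clusters 1 and 6 Scn3a was at 31.1 CPM (23.3 to 40.7) and 26.9, against 108 and 96.5 in sub-clusters 2 and 3. Scn8a was at 449.8 and 439.8 CPM in sub-clusters 1 and 6, against 291 and 304 in 2 and 3, and Scn1a at 577 and 494 against 349 and 306. Scn2a ran the other way, at 291 and 322 CPM in sub-clusters 1 and 6, against 422 and 436 in 2 and 3. Sub-clusters 4 and 5 (78 and 48 nuclei) lay between for Sst, at 117 and 85.2 CPM, and for Pvalb, at 11.1 and 17.0 CPM. Their Scn1a was at 547 and 429 CPM and their Scn3a at 113 and 117. The Scn1a intervals of sub-clusters 4 and 6 overlapped. Sub-cluster 5 was led by St18, Mbp and Prr5l, genes of oligodendrocytes, and the part of a second nucleus in its values was not tested.

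The last comparison set oligodendrocyte precursors against oligodendrocytes. Precursors (349 nuclei) divide and give rise to oligodendrocytes (2567 nuclei), the myelinating cells. The sodium channel genes were higher in precursors and Hcn2 was lower. Scn1a stood at 218 CPM in precursors against 15.8 in oligodendrocytes, a ratio of 13.8 (10.7 to 18.1), and Scn3a at 181 against 10.996, a ratio of 16.4 (12.1 to 22.6). Scn2a stood at 251 CPM in precursors against 50.8, a ratio of 4.94 (4.16 to 5.87), and Scn8a at 234 against 53.9, a ratio of 4.33 (3.65 to 5.15). Hcn2 had 34.8 CPM in precursors against 131 in oligodendrocytes, 3.77-fold lower (ratio 0.265, 0.189 to 0.363). All 5 directions held in each of the 4 sets with at least 50 nuclei on both sides. Hcn3 had 11 UMIs in precursors and 8 in oligodendrocytes, and Hcn4 had 0 and 2, for which no fold is given. Of 5 members with at least 100 UMIs, 4 were at least 2-fold higher, where 15.2% of all genes were, and 1 at least 2-fold lower, where 16.5% were, at a median log2 ratio of 2.30 against -0.18 for all genes.

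Markers of neurons moved with this result. The 8 excitatory neuron markers, all of which had UMIs in precursors, summed to 274 CPM in precursors and 98.8 in oligodendrocytes, and Camk2a alone had 199.8 CPM in precursors and 35.1 in oligodendrocytes, against 1245 in CA1 neurons. The 5 immature neuron markers, of which Eomes was at 0 in both classes, summed to 133 CPM in precursors and 16.0 in oligodendrocytes, and the 6 inhibitory neuron markers to 4115 and 3083 CPM in the same order. Over sets 1, 2, 5 and 7, the summed excitatory markers in precursors were 51.0, 446, 499 and 0 CPM. Scn1a in precursors of the same sets was 174, 262, 213 and 189 CPM, and Scn8a was 133, 311, 255 and 180.5 CPM. In set 7, which held 0 nuclei of the excitatory and inhibitory classes, excitatory markers had 0 of 121875 UMIs in precursors (which allows up to 24.6 CPM). Set 7 was not free of neuronal RNA, as it held 37 Cajal-Retzius cells. It also held 154 nuclei of an unnamed cluster whose excitatory markers summed to 757 CPM over all sets. In the set 7 precursors Scn2a was at 230 CPM and Scn3a at 115. In those set 7 precursors the immature neuron markers stood at 189 CPM and the inhibitory ones at 3380.5 CPM. The part of these markers' source in the result was not tested. In oligodendrocytes Scn1a was lower in each of the 4 sets with a precursor value, and stood at 6.2, 30.9, 16.4, 13.8, 37.7 and 0 CPM in sets 1 to 5 and 7. With nuclei thinned to 1000 UMIs, a UMI of Scn1a was seen in 19.2% of precursors and 1.58% of oligodendrocytes, against 1.84% of microglia.

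**Figure D4:**
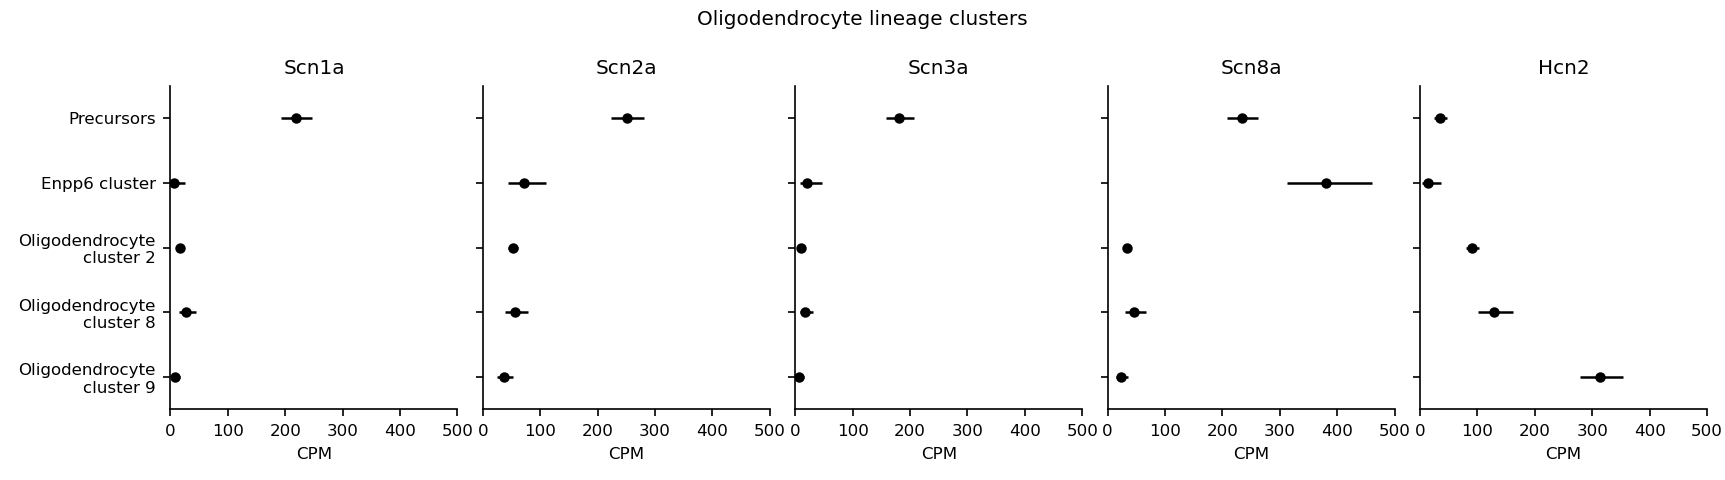
Levels of the 4 sodium channel genes and Hcn2 (CPM, horizontal axis) in oligodendrocyte precursors and the 4 oligodendrocyte clusters (rows, cluster 31 as the Enpp6 cluster), with 95% counting intervals. Scn8a is at 381 CPM in cluster 31 and at most 45.9 in the other 3 clusters, and Hcn2 is at 314 CPM in cluster 9.

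The 4 oligodendrocyte clusters differed in both genes. Cluster 31 (54 nuclei) was led by Cnksr3, Tcf7l2, Bcas1, Tns3 and Enpp6, of which Bcas1 and Enpp6 are known from newly formed oligodendrocytes. Scn8a stood at 381 CPM there (312 to 460) and at 234 in precursors. It was at 34.3 (28.1 to 41.5), 45.9 (30.3 to 66.8) and 23.1 (14.1 to 35.7) in clusters 2, 8 and 9. Hcn2 stood at 14.2 CPM in cluster 31 (3.88 to 36.4, from 4 UMIs), against 91.1 (80.7 to 102) in cluster 2, 129 (102 to 162) in cluster 8 and 314 (278 to 354) in cluster 9. Cluster 31 was thus highest for Scn8a and lowest for Hcn2, and cluster 9 was highest for Hcn2. The Scn8a intervals of clusters 2, 8 and 9 overlapped with one another. Markers moved with these values too. The 7 precursor markers summed to 1046 CPM in cluster 31, against 86.5, 83.4 and 77.4 in clusters 2, 8 and 9, and the 6 inhibitory neuron markers to 5587 CPM, against 2885, 2678.5 and 3252, and their part in the result was not tested. Cluster 9 had Ptgds, Mal and Apod among its leading genes, which mature oligodendrocytes express, and 597 of its 607 nuclei came from barcode set 1, so the cluster and the set cannot be told apart. Without cluster 31, an alternative chosen after its values were seen, the ratio of Scn8a between precursors and oligodendrocytes was 6.94.

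**Figure D5:**
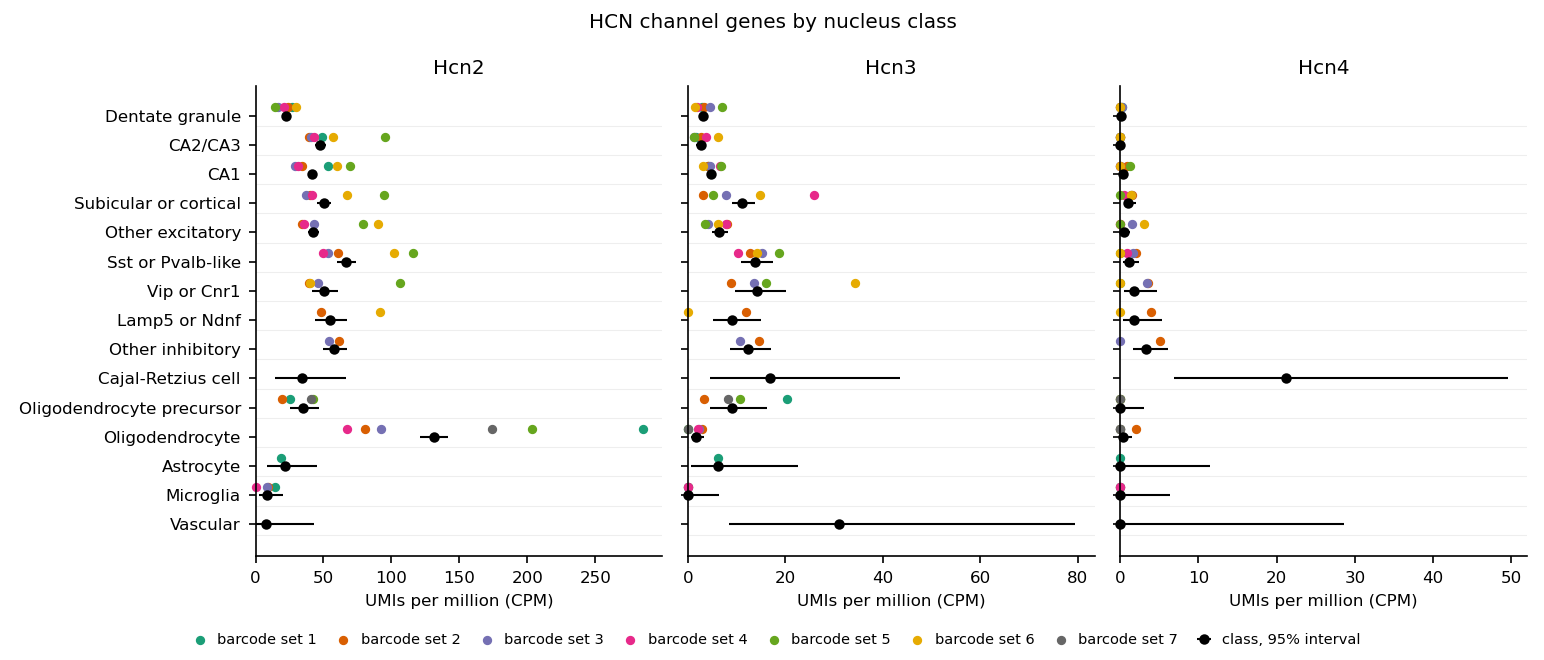
Levels of Hcn2, Hcn3 and Hcn4 (CPM, horizontal axis, own scale for each gene) in the 15 nucleus classes (rows), with the class value and its 95% counting interval in black and single barcode sets as coloured points. Hcn2 is highest in oligodendrocytes at 131 CPM, with Sst or Pvalb-like interneurons next at 66.5.

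Hcn2, a channel gene of both neurons and myelinating cells, was highest in oligodendrocytes. Its level was 131 CPM there (121 to 142) and 66.5 in Sst or Pvalb-like interneurons (59.7 to 73.9). A band of neuron classes followed, at 57.7 CPM in Zic1-marked inhibitory, 54.6 in Lamp5 or Ndnf, 50.4 in Vip or Cnr1, 50.3 in subicular or cortical, 47.3 in CA2/CA3, 42.5 in other excitatory and 41.5 in CA1 neurons. Oligodendrocyte precursors at 34.8 CPM, Cajal-Retzius cells at 33.9 (20.04 without set 7), dentate granule neurons at 22.6 and astrocytes at 21.8 lay lower. Microglia at 8.70 CPM and vascular cells at 7.8 had the lowest levels. As sequenced, a UMI of Hcn2 was seen in 16.6% of oligodendrocytes (15.2 to 18.1) and 24.8% of neurons, which are deeper. Thinned to 1000 UMIs, it was seen in 11.02% of oligodendrocytes (9.69 to 12.5), against 4.91% of neurons, 2.69% of precursors and 0.735% of microglia.

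The Hcn2 level moved with the barcode set. In oligodendrocytes it was 285, 80.7, 92.4, 67.1, 204 and 174 CPM in sets 1 to 5 and 7, so set 1 was highest and set 4 lowest. In neurons it was 43.0, 37.6, 34.3, 35.4, 82.3 and 61.6 CPM in sets 1 to 6, highest in the shallower sets 5 and 6. The oligodendrocyte value was above the neuron value in each of the 5 sets that held both. Without set 1 the neuron to non-neuronal ratio of Hcn2 was 0.583, against 0.432 with it, and so no longer 2-fold. Depth, composition and sample differ between sets at the same time and cannot be told apart.

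Hcn3 and Hcn4 were near the limit of these libraries. Hcn3 stood highest by value in vascular cells at 31.1 CPM (8.5 to 79.5), which rests on 4 UMIs (20.6 CPM without set 3), and then in Cajal-Retzius cells at 17.0, also 4 UMIs (9.71 CPM without set 1). Among larger classes it was highest in 3 of the 4 inhibitory classes, at 14.2 CPM in Vip or Cnr1, 13.9 in Sst or Pvalb-like and 12.4 in Zic1-marked nuclei. Subicular or cortical neurons had 11.2 CPM, which became 6.80 without barcode set 4, and Lamp5 or Ndnf interneurons had 9.10, level with precursors at 9.12. CA1, dentate granule and CA2/CA3 neurons had 4.8, 3.2 and 2.6 CPM, oligodendrocytes 1.7, and microglia 0 UMIs. Hcn4, the cardiac pacemaker isoform, had 82 UMIs in all, of which 5 lay in the 109 Cajal-Retzius cells (21.2 CPM, 6.9 to 49.5), and 3.4 CPM in Zic1-marked inhibitory nuclei. Without barcode set 2 these became 12.6 CPM in Cajal-Retzius cells and 0.834 CPM in Zic1-marked nuclei. The largest unnamed cluster held 23 of the 82 UMIs, at 3.37 CPM. Hcn4 had 0 UMIs in CA2/CA3 neurons, precursors, astrocytes, microglia and vascular cells. Of the UMIs of Hcn2, Hcn3 and Hcn4 together, Hcn2 made up 98.4% in oligodendrocytes, 88.9% in CA1 neurons, 80.1% in inhibitory neurons and 47.1% in Cajal-Retzius cells.

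The channels' partners, 29 genes for other alpha subunits, beta subunits, fibroblast growth factor homologous factors, axon initial segment anchors and HCN partners, were followed in the same comparisons. In neurons against non-neuronal nuclei, 12 of 25 partners with at least 100 UMIs were at least 2-fold higher and 3 lower, where 18.2% and 21.6% of all genes were, at a median log2 ratio of 0.90 against -0.23 for all genes. Scn9a, a sodium channel gene best known from sensory neurons, had 71.8 CPM in neurons against 6.52 in non-neuronal nuclei (11.004-fold), and Sptbn4, a spectrin of the axon initial segment, was 7.06-fold higher. Scn4b, a beta subunit, had 103 UMIs in neurons and 1 in non-neuronal nuclei (ratio 9.30, 1.63 to 371). Kctd3, which in cell systems binds Hcn3, had 37.8 CPM in neurons against 211 in non-neuronal nuclei, 5.59-fold lower. Nfasc, an adhesion protein of nodes and of the paranodal loops of oligodendrocytes, was 4.10-fold lower, and Pex5l (TRIP8b), which traffics HCN channels, was 2.30-fold lower. By CPM, Kctd3 and Pex5l were thus lower in neurons, as Hcn2 was. The list of further HCN channels and HCN partners went both ways, with 2 of 5 genes at least 2-fold higher and 2 lower. These folds are scaled by total UMIs, and a neuron held on average 3.85 times the UMIs of a non-neuronal nucleus. Without that scaling Hcn2 was higher in neurons. Pex5l, less than 3.85-fold lower by CPM, turns in the same way, while Nfasc at 4.10-fold lies near that limit and Kctd3 at 5.59-fold stays lower.

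In precursors against oligodendrocytes, 9 of 17 partners were at least 2-fold higher and 4 lower, where 15.2% and 16.5% of all genes were. Oligodendrocytes are also 2567 of the 3520 non-neuronal nuclei, so this comparison and the one of neurons share nuclei. All 3 fibroblast growth factor homologous factors with enough UMIs, intracellular proteins that bind sodium channels, were higher, among them Fgf14 at 41.2-fold (2998 CPM in precursors against 72.8 in oligodendrocytes) and Fgf13 at 18.5-fold. Sptbn4 was 13.7-fold and Nrcam, a node adhesion protein, 12.7-fold higher. Lower in precursors were Pex5l (7.10-fold, 583 CPM against 4139 in oligodendrocytes), Kctd3 (5.71-fold), Nfasc (5.19-fold) and Ank2, an ankyrin (2.64-fold).

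Among neurons, Pex5l differed in direction between the comparisons. It was 3.83-fold higher in excitatory than in inhibitory neurons, 6.66-fold lower in dentate granule than in CA1 neurons and 9.02-fold lower in CA2/CA3 than in CA1 neurons. Excitatory against inhibitory neurons had 2 of 25 partners at least 2-fold higher, Pex5l and the beta subunit Scn3b (2.31-fold), and 6 lower, where 7.34% and 7.82% of all genes were. Among these were Scn9a (9.63-fold), Fgf13 (8.80-fold) and Camk2d, a calcium-dependent kinase (2.84-fold). Dentate granule against CA1 neurons had 1 of 23 higher, Scn9a (3.13-fold), and 5 lower, with Fgf11 (5.33-fold) and Camk2d (5.17-fold) after Pex5l, where 6.53% and 8.26% of all genes were. CA2/CA3 against CA1 neurons had 1 of 23 higher, Scn7a (3.56-fold), a sodium-sensing relative of the channels, and 5 lower, with Camk2d (3.39-fold) and Fgf11 (3.11-fold) after Pex5l, where 3.98% and 5.61% of all genes were. Sst or Pvalb-like against Adarb2 interneurons had 1 of 22 higher, Fgf12 (2.19-fold), and 1 lower, Fgf13 (3.62-fold), where 4.21% and 3.26% of all genes were.

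The genes most like each member across the 15 classes were ranked by Pearson's r of log2 of the CPM plus 1. The ranking was among 5220 genes with at least 500 UMIs that were held out of the clustering. The 12410 genes open to the clustering, a random set and all markers, were not compared, so closer genes may lie among them. The classes share libraries and depth, so r is a description. For Scn1a they were Sh3rf3 (r of 0.953), Rab27b (0.950) and Sntg1 (0.949), and for Scn2a Sptbn4 (0.978), Tmem191c (0.972) and Hook1 (0.966). Scn8a was most like Phf24 and Sidt1 (0.953 each) and Tspoap1 (0.950), and Scn3a was most like Hecw1 (0.931), Samd12 (0.929) and Myt1l (0.927). Hcn2 had less close neighbours, among them Slc6a8 (0.865) and Eml2 (0.844). Among members, Scn2a had r of 0.905 with Scn1a and 0.90 with Scn8a, while Hcn2 had r between -0.018 and 0.341 with the sodium channel genes. Hcn3 and Hcn4 had under 1000 UMIs and were not ranked.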

How the data were processed

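Single-nucleus libraries of hippocampus were aligned and counted by the authors with Cell Ranger 4.0.0 on mm10 (GRCm38), per the submitters' processing notes. The values are unscaled UMI counts, as deposited, one for each pair of gene and barcode. Their sum of 101300889 covers all barcodes. The members and lists were chosen with earlier results of these data known.

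Barcodes below 500 UMIs or 300 genes, or with 5% or more mitochondrial UMIs, were dropped (108 in all). Scrublet ran on each barcode set in scanpy 1.11.5 (expected rate 0.05), and 316 doublets were removed. In sets 2 and 5 the caller marked 0.212% and 0.495%, too few to have worked, and its calls there were not used, so doublets remain. Variable genes and markers, 2041 features without the 36 members and partners, gave 33 Leiden clusters (leidenalg 0.10.2, 30 principal components, 15 neighbours, resolution 1), with no integration across sets. Clusters were named from listed markers (at least 3 high markers). The naming rule was built while looking at clusters, and the 10 CPM added to both sides when ranking leading genes were chosen after 5, 10 and 20 had been tried. Clusters that failed it stayed unnamed. Some clusters were mostly 1 barcode set.

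UMIs were summed per class. Poisson, Clopper-Pearson and ratio intervals are exact and cover counting error only, and a side at 0 was set to 3 UMIs. Called means at least 2-fold among genes with at least 100 UMIs over both sides, without a test, because nuclei are not replicates. The script was tested on simulated data. All members are named, and of the partners up to 4 per direction with the largest fold, though some genes these rules pick are not reported here. Alternatives changed the filters, doublet calls, resolution, naming of unnamed clusters, depth and barcode sets.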

Additional observations from a re-analysis of the deposited data

Results flagged for a closer look

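In 38 series of a member's CPM over 4 or more barcode sets, the highest or lowest set was compared with the rest, and chance alone marks about 1 in 20 series. Hcn2 in CA2/CA3 neurons stood apart above the other 5 sets in set 5, at 95.1 CPM (74.0 to 120.4, against 39.0 to 57.1 in the others). Scn8a in CA2/CA3 neurons stood apart below the others in set 1, at 412 CPM (386 to 439.6, against 500.6 to 530.5 in the others). Scn1a in Sst or Pvalb-like interneurons was lowest in set 5, at 366 CPM (317 to 421), against 444 to 474 in the others. Scn8a in Vip or Cnr1 interneurons was lowest in set 3, at 231 CPM (194 to 273), while the other 3 sets lay close together between 261 and 267 CPM, within that interval. Set 5 was among the shallower sets, at a median of 2823 UMIs per nucleus, and its part in these values was not tested.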

How the results depend on the processing

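Of 566 alternative values for 35 ratios of members, 5 were counted as turned round. Sst or Pvalb-like over Adarb2 interneurons gave Scn1a 1.02 when thinned and 1.03 as mean UMIs per nucleus, without scaling. That last setting also gave Hcn2 1.66 in neurons over non-neuronal nuclei, and Scn3a 1.18 and Scn8a 1.53 in CA2/CA3 over CA1 neurons. The 5 leave out further values that crossed 1. Scn2a in CA2/CA3 over CA1 neurons went from 0.976 to as high as 1.589. Hcn3 in Sst or Pvalb-like over Adarb2 interneurons went from 1.155 to as low as 0.583. The alternatives that moved counts of members called were as follows. The count lower in neurons was 0 as mean UMIs per nucleus, as the median over sets and without set 1, and Hcn2 is the gene concerned. In dentate granule against CA1 neurons the count lower was 1 with at least 1000 UMIs per nucleus (Hcn3), 1 when thinned and 1 without set 2 (Hcn2). In excitatory against inhibitory neurons the count lower was 0 when thinned, where the Hcn3 ratio was still 0.374 but its UMIs were under 100. In Sst or Pvalb-like against Adarb2 interneurons the count lower was 1 when thinned (Scn3a), 1 as the median over sets, 1 without set 1 and 1 without set 2. In CA2/CA3 against CA1 neurons it was 1 as the median over sets and 1 without set 6 (Hcn3). The cause was not tested. Without the Enpp6 cluster, chosen after its values were seen, the Scn8a ratio was 6.94 for precursors over oligodendrocytes and 6.13 for neurons over non-neuronal nuclei. The class with the highest level stayed in 100 of 105 alternatives, the exceptions being Hcn3 in 4 and Scn3a in 1, each with Cajal-Retzius cells on top. At resolution 0.5 no precursor class was named, so it gave no value. No paired analysis was possible because no label ties barcode sets to replicate numbers, and ratios within each barcode set are given as a description. Hcn4, at 82 UMIs, and the shallow set 7, at a median of 1084 UMIs, limit what can be seen.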

Other observations

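The largest unnamed cluster held 840 nuclei, 835 of them from barcode set 1, and was led by Zfhx3, Scg2 and Resp18. Its best class was immature neuron, and it stayed unnamed because markers of inhibitory neurons were raised 2-fold. The inhibitory markers summed to 2038 CPM and the excitatory ones to 455, against 2412 and 714 CPM in Zic1-marked inhibitory nuclei. It had Scn1a at 339 CPM, Scn2a at 405, Scn3a at 198 and Scn8a at 233, with Hcn2 at 77.0, Hcn3 at 17.0 and Hcn4 at 3.37. It entered no comparison, so the inhibitory values above do not include it. Whether these nuclei are a type or reflect the 1 barcode set cannot be told apart.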
